A study of Mus musculus with 8 samples.

Results

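The homeobox genes *Vsx1*, *Rax*, *Six3*, *Six6* and *Pax6*, which encode transcription factors of the eye field or, for *Vsx1*, of late-born retinal cells, were followed in the mouse retina after loss of *Lhx2*. They were chosen by name and make up 5 of the 28432 genes in the count table. RNA was sequenced from the retinas of 8 embryos at E15.5, with both retinas of an embryo as 1 sample. The 4 control embryos were *Lhx2 flox/+; Hes1 CreERT2/+* and the 4 *Lhx2* conditional knockout (CKO) embryos were *Lhx2 flox/-; Hes1 CreERT2/+* (flox/KO in the sample labels). All 8 carried 1 allele of *Hes1* that drives CreERT2, a Cre recombinase that acts after tamoxifen, and the dam of each received tamoxifen by gavage at E11.5, in a dose between 0.15 and 0.2 mg/g. Cre was thus made where *Hes1* is expressed, in retinal progenitor cells, the CKO embryos also carried a null allele of *Lhx2* in every cell, and controls had a single floxed allele and a wild type allele. Embryos were picked by the fluorescence of a Cre reporter.

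The eye field is the part of the anterior neural plate that gives rise to both eyes, and the proteins encoded by *Rax*, *Six3*, *Six6* and *Pax6* act in it as a network whose members sustain each other's expression. *Rax* is required for the optic vesicle to form. *Six3* and *Six6* are sister genes of the *sine oculis* family whose proteins can repress transcription with Groucho (Tle) partners, and *Pax6* is required for retinal progenitors to keep their range of fates and is kept on in ganglion and amacrine cells. *Vsx1* encodes a paired-like factor of cone bipolar cells, which are born late. *Lhx2* encodes a LIM homeodomain factor of the same eye field network.

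The sequences upstream of the start sites are shown so that the start sites of a gene that fell in the CKO and of genes that did not pass the test can be read side by side, with the CCAAT box, a basal promoter element, marked. They come from a RefSeq promoter table (GRCm38.p6), in which 4 of the 5 genes matched, and hold the 250 bases before a start site, 5′ to 3′ on the strand of the gene, with each CCAAT, or ATTGG where it lies on the other strand, in capitals. *Rax* had no sequence there. Of the 250 bases, 160 for *Six6* and 223 for *Vsx1* lie in annotated untranslated exon sequence, so neither is printed whole. For *Six6* the window around each match is given, and both matches lie in that untranslated part. The 250 bases end before the annotated start of *Six6* at 72939892, so this part is not of its own transcript. It lies within the span of *4930447C04Rik*, a gene on the minus strand.
*Six3*, chr17:85620584-85620833 (+): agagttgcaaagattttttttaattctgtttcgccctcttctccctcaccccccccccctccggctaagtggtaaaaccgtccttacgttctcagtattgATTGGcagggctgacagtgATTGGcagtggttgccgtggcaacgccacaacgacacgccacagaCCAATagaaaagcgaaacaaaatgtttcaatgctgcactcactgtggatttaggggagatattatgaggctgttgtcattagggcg
*Pax6*, first start site, chr2:105668646-105668895 (+): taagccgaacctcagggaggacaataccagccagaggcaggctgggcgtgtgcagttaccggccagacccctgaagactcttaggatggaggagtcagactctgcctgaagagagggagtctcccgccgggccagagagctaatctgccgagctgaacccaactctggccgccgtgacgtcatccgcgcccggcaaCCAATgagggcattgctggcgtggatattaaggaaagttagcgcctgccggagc
*Six6*, first match, chr12:72939804-72939828 (+): cgcagccttgATTGGcagagcagcc
*Six6*, second match, chr12:72939856-72939880 (+): gcccgcgtctCCAATccgcccaccc
CCAAT was searched on both strands and lies in 33.8% of the 32851 promoter windows of this length. *Six3* held 3 matches, *Six6* held 2, the first start site of *Pax6* held 1, and the second start site of *Pax6* and that of *Vsx1* held 0. The homeodomain core TAATTA (in 4.84% of windows) and TATAAA (in 12.4%), which share no match with CCAAT, gave 0 matches in the windows of these genes. *Six6*, which fell in the CKO, and *Six3* and *Pax6*, which did not pass the test, thus all held the box, and a match describes the letters and not a bound site.

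Libraries held 13143587 to 15063867 reads in controls and 13955259 to 19099937 in the CKO. Normalized counts are reads divided by the size factor of the library, and the 13891 genes with at least 20 of them in at least 3 samples were tested between the genotypes with edgeR's quasi-likelihood test, where a gene passed at an adjusted p below 0.001. The log2FC is CKO over control, and errors on means are the SD over 4 samples per group. Of all genes tested, 8.61% passed, 4.97% lower and 3.64% higher in the CKO, and the genotypes did not overlap in 33.8%. *Lhx2* itself gave a mean of 3332 ± 265 (control) and 2761 ± 143 (CKO) with a log2FC of -0.27 (edgeR adjusted p = 0.0050), but reads from exons that the deletion spares count too, so it is no check on genotype. CKO replicate 1 and control replicate 3 stood apart on the second principal component (17.6% of the variance). The log2FC values of *Six6*, *Rax*, *Six3* and *Pax6*, of their neighbours, family and partner genes, and of some genes of other lists were therefore also computed without both. Values per sample are listed in the order of replicates 1 to 4. Reads of *Xist* marked control replicates 1 and 4 (31307 and 33220) and CKO replicate 1 (62937) as female. The other embryos had 13 to 40 and were taken as male, so sex was not balanced between the genotypes. The retina label was checked by summed marker levels: 7 of 13 retinal ganglion cell markers rose and their sum was 62705 to 73341 normalized counts in controls and 87363 to 93308 in the CKO, and 27 of 29 cell cycle genes, which mark dividing progenitors, fell (87483 to 93184 against 57401 to 66043). Photoreceptor precursor markers summed to 10188 to 11339 and 10419 to 11669, those of the retinal pigment epithelium to 239 to 385 and 96.9 to 456 (1 of 4 tested fell by edgeR, 3 by DESeq2 and 4 at an unadjusted p below 0.05, and the defining *Rpe65* was at 0 to 1.04 in controls and 0 to 0.862 in the CKO), and those of the lens to 57.7 to 105 and 73.2 to 152 (of 2 tested, 0 passed by edgeR and 1 by DESeq2 and at an unadjusted p below 0.05). The 4 tested pigment markers had log2FC values of -0.92 (*Tyr*), -1.52 (*Tyrp1*), -1.75 (*Pmel*) and -2.05 (*Dct*), and the upper end of the CKO sum came from *Ttr*, with 380 normalized counts in CKO replicate 4 and 5.47 to 19.9 in the other CKO samples. In the CKO *Tyr*, *Tyrp1* and *Dct* lay below the filter, so they were tested only through their controls. Of the lens genes, *Cryba1* had 3.04 to 12.1 normalized counts in controls and 21.5 to 58.0 in the CKO (log2FC 2.83, edgeR adjusted p = 0.0013). All its controls lay below the filter, so *Cryba1* was tested only because it is high in the CKO. *Bfsp1* had a log2FC of -0.03 (edgeR adjusted p = 0.93). Hypothalamus markers, of a tissue where *Rax*, *Six3* and *Six6* are also active, summed to 38.5 to 51.4 and 133 to 294, and *Otp* and *Sim1* among the 3 tested rose (the call of *Sim1* was lost without any 1 control sample, edgeR adjusted p = 0.0015 to 0.0044), *Pomc* had a log2FC of -0.13 (edgeR adjusted p = 0.64), and *Nkx2-1*, too low to test, gave 0 to 2.08 normalized counts in controls and 0.794 to 6.03 in the CKO. In controls *Otp* (0 to 5.03) and *Sim1* (0 to 1.04) lay below the filter, so both were tested only because they are high in the CKO. Without CKO replicate 1, 2 or 4, *Sim1* no longer met the filter. In bulk tissue, fewer cells of a type and less RNA per cell cannot be told apart, and the part of these cell types in the results below was not tested.

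Of the 5 genes, 4 passed the filter on low counts, and 2 of these, *Six6* and *Rax*, fell in the CKO, against 4.97% of all genes lower. None rose by edgeR, by DESeq2 or at an unadjusted p below 0.05 (0 of 4 by each). The median log2FC of the 4 was -0.42, against 0.0053 over all genes tested. Each of the 4 exceeded the filter in all 8 samples.

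*Six6*, the sister gene of *Six3* in ventral forebrain and retina and a factor that keeps progenitors dividing (ENSMUSG00000021099, chromosome 12, 72939892 to 72944899 of GRCm38, plus strand), gave 3457, 3151, 3192 and 3230 normalized counts in the control embryos. The CKO embryos gave 1254, 1683, 1635 and 1481. All CKO samples lay far below all controls, and CKO replicate 1 was the lowest. The mean fell from 3258 ± 137 to 1514 ± 193 (n = 4 per group), a log2FC of -1.11 (SE 0.0779, 95% interval -1.28 to -0.94, edgeR adjusted p = 2.4e-06) and a fold of 0.465 (95% interval 0.413 to 0.523). It ranked 77 among all genes by p-value. The spread was wider in the CKO, with a coefficient of variation of 12.8% against 4.19% in controls.

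*Rax*, which is required for the optic vesicle and later kept in progenitors (ENSMUSG00000024518, chromosome 18, 65928277 to 65939787, minus strand), gave normalized counts of 1817, 1609, 1950 and 1501 in the control embryos. The CKO embryos gave 902, 948, 933 and 1042. The lowest control exceeded the highest CKO sample. The mean fell from 1719 ± 202 to 956 ± 60.2 (log2FC -0.84, SE 0.0797, 95% interval -1.02 to -0.67, edgeR adjusted p = 2.1e-05), a fold of 0.557 (95% interval 0.493 to 0.628) and rank 202. Of its exon bases, 1604 (27.4%) also lie in the antisense gene *Raxos1*, and in libraries that do not keep strand the reads there cannot be told apart.

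*Six3*, a factor that keeps posterior fates out of the forebrain (ENSMUSG00000038805, chromosome 17, 85613608 to 85629302, plus strand), gave 5407, 4925, 5724 and 5394 normalized counts in the control embryos and 4925, 5555, 5311 and 5780 in the CKO embryos. The genotypes overlapped over nearly their whole range. The means were 5363 ± 329 and 5393 ± 366, and the log2FC of 0.01 (SE 0.0592, 95% interval -0.12 to 0.14, edgeR adjusted p = 0.92) did not pass and took a small negative value in 4 alternative fits.

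*Pax6*, the paired-box factor of progenitors and of several neuron types (ENSMUSG00000027168, chromosome 2, 105668900 to 105697364, plus strand), gave 10955, 11052, 10011 and 10745 normalized counts in the control embryos and 12224, 11263, 11337 and 11770 in the CKO embryos. All CKO samples lay above all controls, as happened in 33.8% of genes tested in either direction, yet the gap was small. The means were 10691 ± 471 and 11649 ± 444, with a log2FC of 0.13 (SE 0.0587, 95% interval -0.0027 to 0.25, edgeR adjusted p = 0.12), which did not pass.

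*Vsx1* (ENSMUSG00000033080, chromosome 2, 150680702 to 150689360, minus strand) was near the limit of detection and was not tested by edgeR. Its raw reads were 12, 3, 3 and 3 in the control embryos and 12, 9, 9 and 13 in the CKO embryos. As normalized counts these were 12.1, 3.12, 3.43 and 3.04 in controls and 9.53, 7.75, 9.85 and 13.9 in the CKO. Control replicate 1 lay among the CKO samples and the other controls lay below them. The ratio of the summed reads, CKO over control and scaled for depth, was 1.83 (exact binomial interval at 95%, which covers counting error alone, 1.06 to 3.25), an exact two-sided permutation test of the samples gave p = 0.114 (smallest possible 0.0286), edgeR with no filter gave an adjusted p of 0.24, and without control replicate 1 the ratio of summed reads, scaled for depth, was 3.16. Other bipolar markers were low too, and of 6 only *Trpm1*, which pigment cells also express, passed the filter (297 ± 195 against 154.5 ± 39.6 normalized counts, log2FC -0.96, edgeR adjusted p = 0.14).

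**Figure D1:**
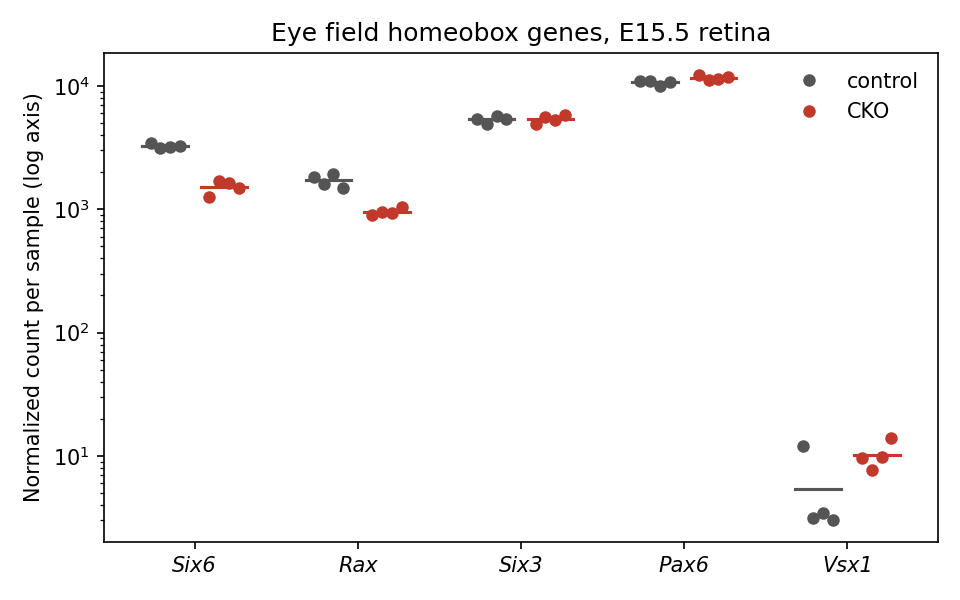
Normalized counts (reads divided by the size factor of the library, log axis) of *Six3*, *Pax6*, *Six6*, *Rax* and *Vsx1* in each of 4 control and 4 CKO samples, with 1 point per embryo and a bar at the group mean. *Six6* and *Rax* fall clearly below their controls, *Six3* overlaps, *Pax6* lies slightly higher and *Vsx1* is close to the floor in both genotypes.

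Levels can be set against each other only per length. On the scale of normalized counts per kilobase of the union of exons, *Six3* (985 ± 60.5) and *Pax6* (914 ± 40.3) led in controls, followed by *Six6* (813 ± 34.1), *Rax* (294 ± 34.6) and *Vsx1* (1.43 ± 1.17). In the CKO, *Pax6* had 996 and *Six3* 990 per kilobase, *Six6* had 378, *Rax* 164 and *Vsx1* 2.70 ± 0.682. The lead of *Six3* over *Pax6* in controls is within their spread and turned when the longest transcript stood in for the union (*Pax6* 2415, *Six3* 1457, *Six6* 813, *Rax* 602 per kilobase). *Rax* and *Vsx1* remained the 2 lowest under both lengths.

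The ratio of a pair of genes within a sample does not depend on library depth. Of 10 pairs, 6 differed between the genotypes at an adjusted p below 0.05 by an exact permutation test. The test was two-sided and adjusted over the 10 pairs. The pairs share genes and are not independent, and each of the 6 holds *Six6* or *Rax*, which fell. How often a pair of any genes differs was not tested, and among single genes tested the genotypes did not overlap in 33.8%. *Six3* over *Six6* was 1.56, 1.56, 1.79 and 1.67 in the control embryos and 3.93, 3.30, 3.25 and 3.90 in the CKO embryos (log2 difference 1.12, permutation adjusted p = 0.0476, the smallest 4 against 4 samples allow after adjustment here). Every CKO embryo thus had a higher ratio of the sister genes than any control. *Six6* over *Pax6* went from 0.285 to 0.319 in controls to 0.103 to 0.149 in the CKO (log2 difference -1.24), *Rax* over *Pax6* from 0.140 to 0.195 to 0.0738 to 0.0885 (-0.97) and *Rax* over *Six3* from 0.278 to 0.341 to 0.171 to 0.183 (-0.85), each at permutation adjusted p = 0.0476. The 2 genes that fell differed less from each other, since *Rax* over *Six6* was 0.526, 0.511, 0.611 and 0.465 in controls and 0.719, 0.563, 0.571 and 0.703 in the CKO (log2 difference 0.27, permutation adjusted p = 0.122). *Six3* over *Pax6* was 0.446 to 0.572 and 0.403 to 0.493 (-0.12, permutation adjusted p = 0.314). The ratios of *Vsx1* to *Rax* and *Six6* rested on its few reads (log2 differences 1.91 and 2.18, permutation adjusted p = 0.0476), and those to *Six3* and *Pax6* did not pass (1.06 and 0.95, permutation adjusted p = 0.127).

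**Figure D2:**
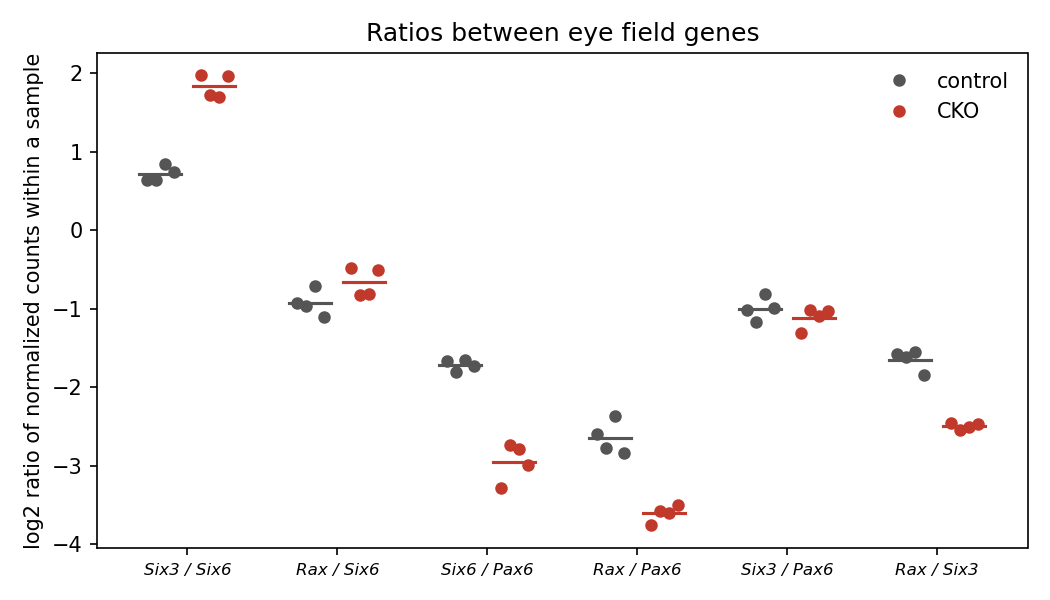
Log2 ratios of normalized counts between pairs of the genes within each sample, for 4 control and 4 CKO embryos, with a bar at the group mean. The ratios of *Six6* and *Rax* to *Six3* and *Pax6* separate the genotypes completely, and *Rax* over *Six6* and *Six3* over *Pax6* overlap.

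Each gene was also read against the mean log2 level of 29 cell cycle genes, which itself differed by -0.55 between CKO and control. Against them, the log2 difference was -0.57 for *Six6* and -0.29 for *Rax*, with no overlap of the genotypes, and 0.55 for *Six3* and 0.67 for *Pax6* (exact permutation, adjusted over 5 genes, p = 0.0357 each). *Vsx1* had 1.62 (permutation adjusted p = 0.0571). With the 15 DNA replication genes alone, *Rax* had -0.26 (permutation adjusted p = 0.0571). Against 13 retinal ganglion cell markers, a reference added after the data were seen and itself higher by 0.38, the log2 difference was -1.49 for *Six6*, -1.22 for *Rax* and -0.37 for *Six3* (permutation adjusted p = 0.0476 each), and *Pax6* had -0.25 and *Vsx1* 0.69 (permutation adjusted p = 0.0714 and 0.229). The signs of *Six6* and *Rax* were the same against either reference, and those of *Six3* and *Pax6* turned. The ganglion cell reference rose while *Six6* and *Rax* fell, so their sign against it was given in advance. It is no further evidence of their fall. Since *Six3* and *Pax6* had log2FC values of 0.01 and 0.13, their differences here are largely the shift of the reference with its sign reversed. These p-values thus test the reference lists and are no evidence of a change in *Six3* or *Pax6*.

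**Figure D3:**
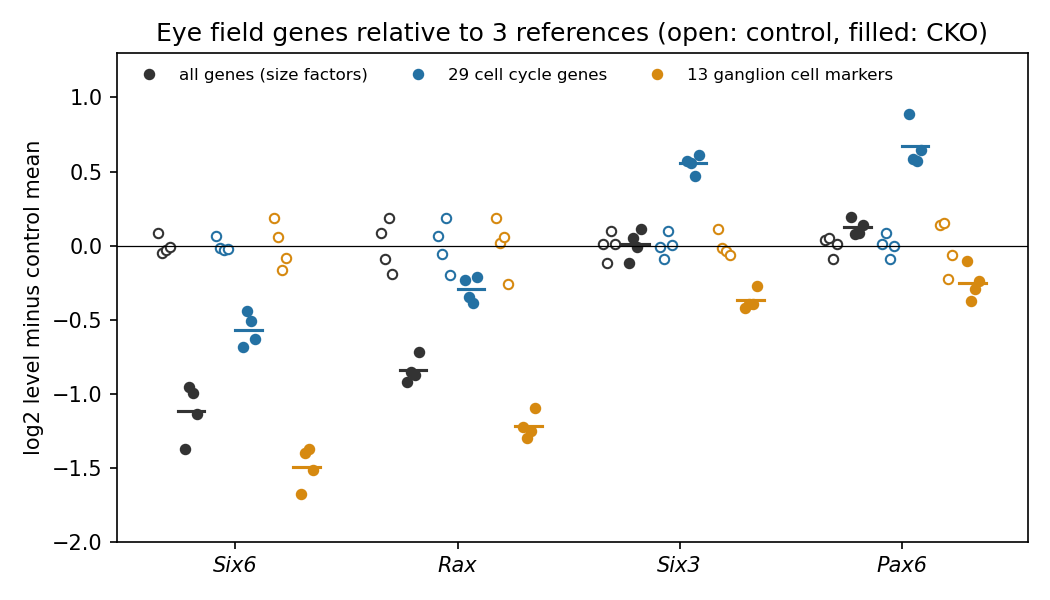
Log2 level of each gene relative to the control mean, per sample, as normalized counts, against 29 cell cycle genes and against 13 retinal ganglion cell markers. *Six6* and *Rax* stay below 0 in the CKO under each reference, while *Six3* and *Pax6* lie above 0 against cell cycle genes and below it against ganglion cell markers. Open points are controls, filled points the CKO and bars the CKO mean.

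Noncoding neighbours and overlapping genes did not all follow the coding gene. *Six3os1*, which runs antisense to *Six3* and shares 106 exon bases with it, averaged 9691 ± 157 (control) and 9344 ± 373 (CKO) (log2FC -0.05, edgeR adjusted p = 0.51), and its reads were 1.66 to 2.01 times those of *Six3* in controls and 1.61 to 2.00 times in the CKO. *Pax6os1*, antisense to *Pax6*, fell, with 97.7 to 119 normalized counts among controls and 50.8 to 66.7 among CKO samples (log2FC -0.93, SE 0.130, edgeR adjusted p = 3.0e-04), a call lost without control replicate 2 or 4 or CKO replicate 2 or 4 (adjusted p = 0.00143 to 0.00192). *Paupar*, a long noncoding RNA gene upstream of *Pax6*, gave 184, 179, 155 and 160 in the control embryos and 277, 226, 242 and 240.1 in the CKO embryos, without passing (log2FC 0.54, edgeR adjusted p = 0.0018, and 8.9e-05 by DESeq2). Relative to the reads of *Pax6*, *Pax6os1* was 0.00892 to 0.0119 in controls and 0.00451 to 0.00589 in the CKO, and *Paupar* 0.0149 to 0.0168 and 0.0200 to 0.0227 (exact permutation p = 0.0286 for each). This p is the smallest that 4 against 4 samples allow and was not adjusted for the several ratios tested. The 2 noncoding genes beside *Pax6* thus had log2FC values of opposite sign. *Raxos1* had a log2FC of -0.62 (edgeR adjusted p = 0.0072) and its ratio to *Rax* overlapped between control and CKO (0.0537 to 0.0904 and 0.0686 to 0.106, exact permutation p = 0.4). *4930447C04Rik*, which shares 192 exon bases with *Six6*, had -0.52 (edgeR adjusted p = 0.16). Single libraries moved this value, to -0.92 without CKO replicate 1 (edgeR adjusted p = 0.0024) and -0.31 without control replicate 2 (edgeR adjusted p = 0.42), and without control replicate 3 and CKO replicate 1 together it passed (-0.997, edgeR adjusted p = 3.2e-04). *Gm28528*, which is antisense to *Six3* and shares 168 exon bases with it, had -0.07 (edgeR adjusted p = 0.79), and 0.057 without CKO replicate 4.

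Most other genes of the same families were low or did not pass. Of *Six2*, *Six4* and *Six5*, 0 passed by edgeR or DESeq2, with 1 at an unadjusted p below 0.05, *Six5* (359.5 ± 37.4 against 266 ± 26.1 normalized counts, log2FC -0.43, edgeR adjusted p = 0.0064). *Six2* had 0.25 and *Six4* -0.34. Of 12 genes for partners of these factors, 11 were tested, 1 rose and 2 fell, with a median log2FC of 0.0045, against 3.64% higher and 4.97% lower of all genes tested. All 3 encode Groucho corepressors: *Tle1* rose from 3002 ± 152 to 4833 ± 299 (log2FC 0.69, SE 0.0589, edgeR adjusted p = 1.0e-05), *Tle2* fell from 39.3 ± 10.3 to 6.86 ± 1.93 (log2FC -2.47, edgeR adjusted p = 8.9e-05) and *Tle3* fell from 2600 ± 101 to 1944 ± 75.0 (log2FC -0.42, edgeR adjusted p = 5.7e-05). In the CKO *Tle2* (5.34 to 9.48) lay below the filter, so it was tested only through its controls. *Tle1* and *Tle3* moved in opposite directions. The Eya coactivator genes had log2FC values of 0.29 (*Eya1*), -0.27 (*Eya2*), -0.13 (*Eya3*) and 0.03 (*Eya4*), none past the test, and *Dach1*, *Dach2*, *Tle4* and *Aes* had 0.03, 0.54, 0.0045 and -0.32.

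Among the other *Pax* genes, only *Pax2*, of the optic stalk, was tested, and it fell, with 52.7 to 76.5 normalized counts among controls and 16.4 to 24.1 among CKO samples (log2FC -1.72, edgeR adjusted p = 7.6e-05). Of 23 other paired-like homeobox genes, 5 were tested and 1 passed, against 8.61% of all genes tested: *Uncx* rose from 7.96 ± 5.64 to 102 ± 36.4 normalized counts (log2FC 3.65, edgeR adjusted p = 4.1e-05). All its controls (3.43 to 16.1) lay below the filter of 20, so *Uncx* was tested only because it is high in the CKO. *Pax2* in turn met the filter through its controls. The photoreceptor factors *Otx2* and *Crx* had 0.06 and 0.29 (edgeR adjusted p = 0.53 and 0.014). *Shox2* had 0.83 (edgeR adjusted p = 0.0076) and *Otx1* had -1.53 (edgeR adjusted p = 0.019). The counts of *Otx1* overlapped, with 46.8 to 297 in controls and 33.4 to 72.4 in the CKO. Of 19 other transcription factor genes of the eye field and optic cup, 6 fell and 1 rose, with a median log2FC of -0.25. By DESeq2 7 fell and 2 rose, and 10 were lower and 3 higher at an unadjusted p below 0.05. The list shares *Pax2*, which is among the 6, and *Otx1* and *Otx2* with the lists above. It also holds *Lhx2* itself, which is among the 10 and is no check on genotype. Of all genes tested, edgeR called 4.97% lower and 3.64% higher. *Hes1*, the Notch target of which each embryo carried 1 driver allele, fell from 1034 ± 86.7 to 358 ± 37.7 normalized counts (log2FC -1.53, edgeR adjusted p = 4.3e-07), and *Tbx3* (-1.15), *Nr2e1* (-0.74), *Sox2* (-0.56) and *Foxd1* (-1.24) fell as well. *Nr2f2*, which encodes the nuclear receptor COUP-TFII, rose (1.11, edgeR adjusted p = 2.0e-06). Of 9 genes reported here that the factors are known to regulate, 7 were tested and 0 passed by edgeR or DESeq2, with 2 higher and 2 lower at an unadjusted p below 0.05 and a median log2FC of 0.07. Besides *Crx*, the higher gene was *Neurod1*, a neurogenic factor of the retina, with a log2FC of 0.22 (edgeR adjusted p = 0.014). *Neurog2*, which Pax6 activates directly, had a log2FC of 0.07 (edgeR adjusted p = 0.27), *Atoh7* -0.24 (edgeR adjusted p = 0.048) and *Cdkn1b*, which Six6 represses, -0.15 (edgeR adjusted p = 0.025).

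**Figure D4:**
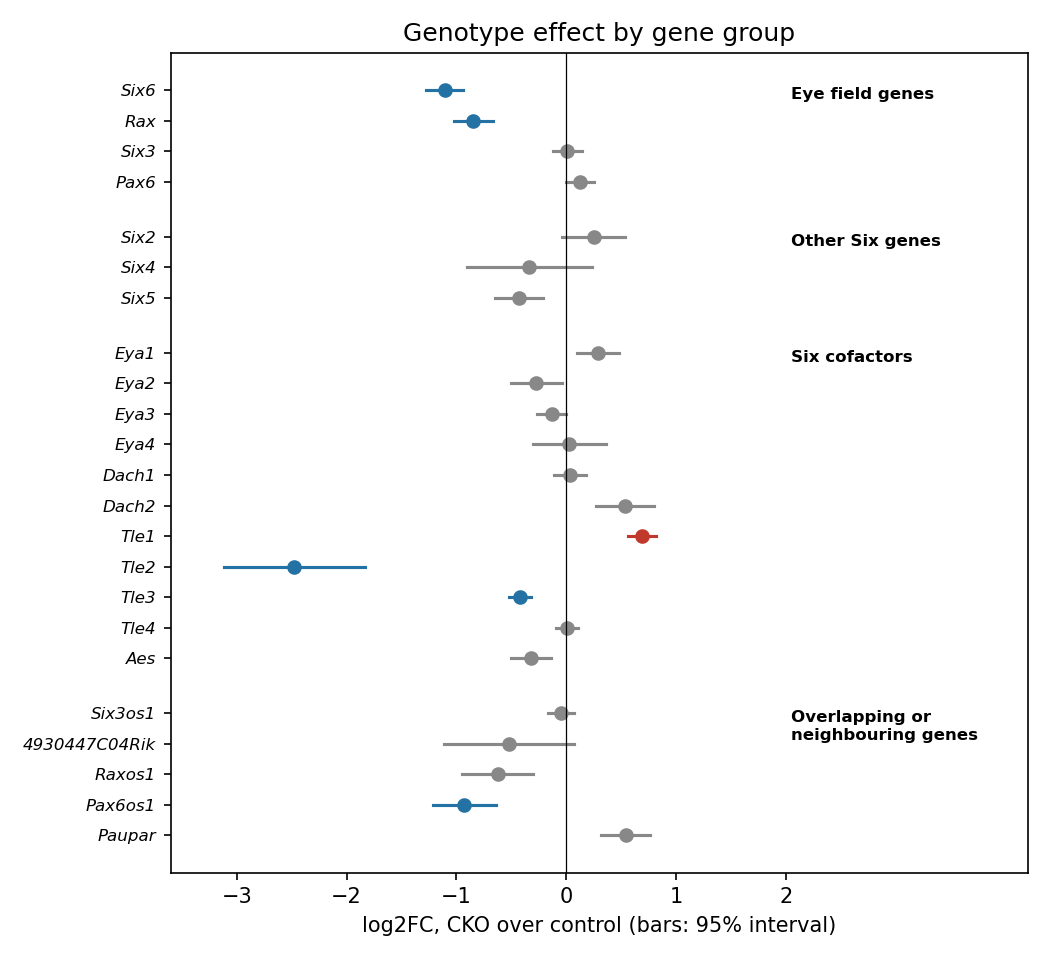
Log2FC (CKO over control, edgeR) with its 95% interval for *Six6*, *Rax*, *Six3* and *Pax6*, for *Six2*, *Six4* and *Six5*, for genes of their protein partners and for overlapping or neighbouring genes (red higher, blue lower, gray not past the test). *Six6* and *Rax* lie well below 0, *Six3* and *Pax6* at or slightly above it, and *Tle1* and *Tle3* on opposite sides.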

How the data were processed

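Retinal RNA of 8 mouse embryos, 4 control and 4 *Lhx2* CKO, was sequenced. Poly(A) libraries without strand information were read for 50 cycles from a single end. Reads were aligned by the authors to mm10 (TopHat 2) and counted per gene (HTSeq), and the raw counts that the authors deposited, with no normalization, were analysed here. For HTSeq the version, strand setting and annotation were not given in the sources used here. Of 28432 gene IDs, 28232 were found in GENCODE M21 (GRCm38), the source of coordinates and lengths. Litter and day of harvest were unknown per sample and could not be modelled.

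R 4.3.3 was used. After a filter of at least 20 normalized counts (median-of-ratios) in at least 3 samples, genotypes were compared with edgeR 4.0.16 (quasi-likelihood, TMM, genotype only), with p-values adjusted by Benjamini-Hochberg over 13891 genes and the cutoff of the study, 0.001. Ratios used a pseudocount of 0.5 and exact permutation tests. The 5 genes and all lists were chosen with earlier results of these data known, and a few genes are not reported here. The text names the 5 genes, their overlapping and neighbouring genes, other *sine oculis* family genes and their partners, and up to 5 genes of every other list by smallest p, beside *Nkx2-1*, *Rpe65* and *Ttr*, chosen after their values were seen. *Xist* is named for embryo sex alone. Replicate numbers did not pair the samples (correlations of deviations 0.14, -0.15, 0.06 and -0.12). Alternatives were DESeq2 1.42.0, limma 3.58.1 (voom), other scalings and filters, an adjusted p below 0.05, the replicate number as a block, embryo sex, and leaving out samples. The edgeR fit was tested on simulated data. It called 28.6% of genes with a true absolute log2FC of 0.5, 88.1% at 1 and 95.7% at 2. A gene that did not pass can thus have changed by about 0.5.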

Additional observations from a re-analysis of the deposited data

Results flagged for a closer look

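Of 50 sets of 1 gene in 1 group (25 genes), 3 had a sample whose gap to the others exceeded Dixon's critical value of 0.829 for 4 samples, and chance gives about 1 set in 20. For *Vsx1*, control replicate 1 had 12.1 normalized counts and the other controls 3.04 to 3.43. *4930447C04Rik*, which overlaps *Six6*, had 389 in control replicate 2, against 237 to 258, and 330.5 in CKO replicate 1, against 143 to 156.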

How the results depend on the processing

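*Six6* and *Rax* kept their calls in all 18 alternatives, with log2FC values from -1.15 to -1.03 (*Six6*) and -0.90 to -0.76 (*Rax*), and none of the alternatives called *Six3* or *Pax6*. The samples share only replicate numbers. With the number as a block, the log2FC was -1.11 for *Six6* (edgeR adjusted p = 3.9e-05), -0.84 for *Rax* (2.0e-04), 0.0097 for *Six3* and 0.13 for *Pax6*, *Pax6os1* lost its call (edgeR adjusted p = 0.0017), and all genes called lower and higher went from 691 and 505 to 404 and 272. *Six3* had -0.017 with library totals and -0.0039 with embryo sex, and *Tle4* had -0.022 with library totals. With samples left out, the log2FC ran from -0.024 to 0.079 for *Six3*, -0.078 to 0.091 for *Eya4*, -0.045 to 0.077 for *Dach1*, -0.27 to 0.057 for *Gm28528* and -0.018 to 0.020 for *Tle4*, and the log2 ratio of *Vsx1* from 0.72 to 1.68, the highest without control replicate 1. At an adjusted p below 0.05, 25 list genes other than the 5 rose, against 13. DESeq2 called 1232 genes lower and 1158 higher, no filter gave 1091 and 964, and an adjusted p below 0.05 gave 2412 and 2207. Relative to DNA replication genes *Rax* had -0.26 (permutation adjusted p = 0.0571), and relative to ganglion cell markers, chosen after seeing the data, *Six3* had -0.37 and *Pax6* -0.25. With the longest transcript the control levels per kilobase were 602 (*Rax*), 1457 (*Six3*) and 2415 (*Pax6*). The cause of these shifts was not tested.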

Other observations

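Over the 8 samples and 12149 genes compared, the genes whose log2 normalized counts were most like those of a gene above were *Gcnt4* (Pearson r = 0.999), *Fgf3* (0.999) and *Epb4.1l2* (0.998) for *Six6*, and *Efemp2* (0.994), *Smtn* (0.992) and *Nup85* (0.990) for *Rax*. For *Six3* they were *Yipf1* (0.974), *Rwdd4a* (0.963) and *BC029722* (0.958), for *Pax6* *Zfp398* (0.991), *Unc5c* (0.985) and *Trp53bp1* (0.985), and for *Vsx1* *Foxp4* (0.961), *Gm11346* (0.948) and *Tnip1* (0.941). The 8 samples share the genotype split and the sequencing depth of each library, so these values describe the samples and carry no p. Of 11 amacrine and horizontal cell markers, *Lhx1* rose from 82.5 ± 6.83 to 149.5 ± 16.4 (log2FC 0.86, edgeR adjusted p = 2.8e-04) and *Prdm13* fell from 1351 ± 66.8 to 1002 ± 101 (log2FC -0.43, edgeR adjusted p = 7.8e-04), with a median of 0.22 over the list. Both calls were lost without control replicate 1, 2 or 4 or CKO replicate 3 or 4 and that of *Prdm13* also without control replicate 3 (edgeR adjusted p = 0.0012 to 0.0038). *Pmel*, of pigment cells, fell from 146 ± 40.5 to 43.6 ± 8.70 (log2FC -1.75, edgeR adjusted p = 8.9e-05), and 0 of 7 photoreceptor precursor markers passed by edgeR or DESeq2, with 1 higher and 1 lower at an unadjusted p below 0.05.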
